A study of Mus musculus with 2 samples.

Results

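Nupr1 and 8 genes of the integrated stress response (Ddit3, Ddit4, Atf4, Trib3, Chac1, Asns, Sesn2 and Cebpb) were followed across the cell classes of mouse back skin, 9 genes of 31053 in the deposited feature table. The genes were taken by symbol, each matched 1 identifier, and all 9 had UMIs (unique molecular identifiers, 1 per captured transcript) in both libraries. They were selected on values measured in these libraries. Nupr1 was chosen by its higher UMI count in hair germ cells of the induced mouse, and the others were grouped around it with their values known, so every difference below is a description and not a test. Nupr1 is identified as ENSMUSG00000030717 and Atf4 as ENSMUSG00000042406.

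The study profiled dissociated back skin at postnatal day 53 from 1 control mouse and 1 mouse with inducible miR-205, a microRNA abundant in skin epithelium, to ask how added miR-205 changes the cells of the skin and its hair follicles. Both mice were labelled C57BL/6, were matched for sex and carried a K14-H2BGFP allele, a nuclear reporter driven in keratin 14-positive epithelium. In the induced mouse, a Krt14-driven tetracycline activator switched on a miR-205 transgene, so the transgene was targeted to epithelium and not to dermis. The inducer was doxycycline, fed in chow for the 4 days that began at postnatal day 49. The protocol text gives it to both mice and the sample characteristics call the control untreated, so doxycycline itself may or may not be shared. With 1 library per group, the 2 conditions cannot be told apart from 2 individual mice or 2 preparations, and all intervals below (95%) cover counting error only.

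The study's cell filter kept 3936 of 4545 control barcodes and 3628 of 4264 induced barcodes, at median depths of 12198.5 and 11752.5 UMIs per cell. Cells were placed in 14 classes by summed UMIs of marker genes, none of them a gene described here, which covered 3477 control and 3093 induced cells. A further 66 control and 86 induced cells passed more than 1 lineage gate, and 393 and 449 passed none. In the kept cells, 5 barcodes occurred in both libraries. The class gated on the bulge stem cell markers Cd34 and Krt24 is here called HF-SC-like, for hair follicle stem cells. It raised 5 of its 6 fixed markers at least 2-fold over the other epithelial classes. Of these, Cd34 and Krt24 were bound to rise by the gate, and 3 (Postn, Tbx1 and Lhx2) lie outside it. The hair germ-like class was gated on at least 2 Lgr5 UMIs after the other follicle gates, so Lgr5 was bound to rise. Among its other fixed markers it raised Lef1, Msx2 and Gli1 but not Cdh3 or Pthlh. Just outside its gate sat 452 epithelial cells with 1 Lgr5 UMI. Inner bulge-like cells, gated on Krt75 and Fgf18, raised 1 marker outside their gate, Krt6a, but not Timp3 or Krt6b. In the dermal papilla-like and cycling classes every fixed marker was a gate gene, so no outside marker checks those classes. The host transcript of endogenous miR-205, 4631405K08Rik, stood at 117 CPM (counts per 1e6 summed UMIs) in control and 126 CPM in induced epithelium, which does not read the transgene.

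The integrated stress response is a shared exit of several kinases that sense unfolded protein, amino acid shortage, double-stranded RNA or haem shortage and phosphorylate the initiation factor eIF2. General translation then slows while the mRNA of the transcription factor ATF4 is translated more, so the pathway is driven mainly at the protein level. ATF4, together with C/EBP partners, switches on genes of amino acid supply and of feedback. Nupr1 encodes a small nuclear stress protein, Ddit3 encodes CHOP, Trib3 a pseudokinase that restrains ATF4 and AKT, Chac1 an enzyme that degrades glutathione, and Asns asparagine synthetase. Ddit4 and Sesn2 encode inhibitors of mTORC1 signalling, and Cebpb a C/EBP transcription factor that can pair with ATF4.

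ATF4 and C/EBP dimers are known to bind a composite element whose core can be written TGATGNAA, and promoter sequences were searched for it to show which members carry its letters. All 9 members matched a RefSeq promoter (GRCm38.p6, 250 bases before to 50 after the start). The letters TGATGNAA, on either strand, were found in the promoters of 4 members, namely Nupr1, Trib3, Chac1 and Asns, and in 3.97% of all 32851 promoters. The element-bearing stretch of each is printed on the gene's own strand with the match in capitals. In Nupr1, Trib3 and Chac1 the match lies on the opposite strand, so the printed strand reads TTNCATCA.
Nupr1, chr7:126625563-126625590, minus strand: aagggccagaTTGCATCAgacagggctt
Trib3, chr2:152344029-152344056, minus strand: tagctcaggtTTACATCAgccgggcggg
Chac1, chr2:119351039-119351066, plus strand: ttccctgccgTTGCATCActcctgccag
Asns, chr6:7693215-7693242, minus strand: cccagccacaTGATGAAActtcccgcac
The match began 110 bases before the annotated start in Nupr1, 193 before it in Chac1 and 23 before it in Asns, whereas in Trib3 it began 14 bases after the start. The endoplasmic reticulum stress element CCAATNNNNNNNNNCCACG, searched on both strands, was in none of the members' promoters and in 0.119% of all promoters. These are matches of letters in a short window and carry no reading of factor binding.

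The sequence of the induced microRNA is shown because its seed, bases 2 to 8, sets which transcripts it can pair with.
mmu-miR-205-5p, chr1:193507503-193507524, minus strand, seed in capitals: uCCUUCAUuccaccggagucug
The complement of that seed, ATGAAGG, was absent from the longest annotated 3′ UTR of all 9 members and present in 10.4% of 19915 genes with one. These UTRs came from an older annotation (build NCBIM37), and the members' UTRs are short, from 80 bases in Atf4 to 1684 in Sesn2.

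Nupr1 was foremost a dermal gene in this skin. Fibroblast-like cells held 1793 Nupr1 UMIs in 104 control cells and 1722 in 131 induced cells, or 1409 and 1188 CPM. Dermal papilla-like cells, the mesenchymal signalling centre at the follicle base, held 350 UMIs in 112 control cells (652 CPM) and 601 in 168 induced cells (623 CPM). The ranges of these classes over both libraries did not overlap each other or any other class. Nupr1 was detected in 97.1% of control and 93.1% of induced fibroblast-like cells, and in 79.5% and 82.1% of dermal papilla-like cells. Against all epithelial classes together, at 19.5 CPM in control and 24.3 CPM in induced, the fibroblast-like level was 72.4-fold higher in control and 48.9-fold higher in induced.

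Neither dermal class had a higher Nupr1 level in the induced library. The log2 ratio of induced to control CPM was −0.25 (−0.34 to −0.15) in fibroblast-like cells and −0.07 (−0.26 to 0.13) in dermal papilla-like cells. The fibroblast markers themselves were also lower in the induced fibroblast-like class, at 122892 CPM in control and 87875 CPM in induced, and their part in the Nupr1 difference was not tested. The 5 genes whose pattern over the 28 class-by-library points was most like Nupr1, among 8864 genes, were Gpr153 (Pearson r = 0.92), Fkbp7 (0.91), Tmem47 (0.91), the collagen receptor Ddr2 (0.91) and the mesenchymal receptor Pdgfra (0.91). The points share 2 libraries, so these correlations describe the class pattern alone.

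**Figure D1:**
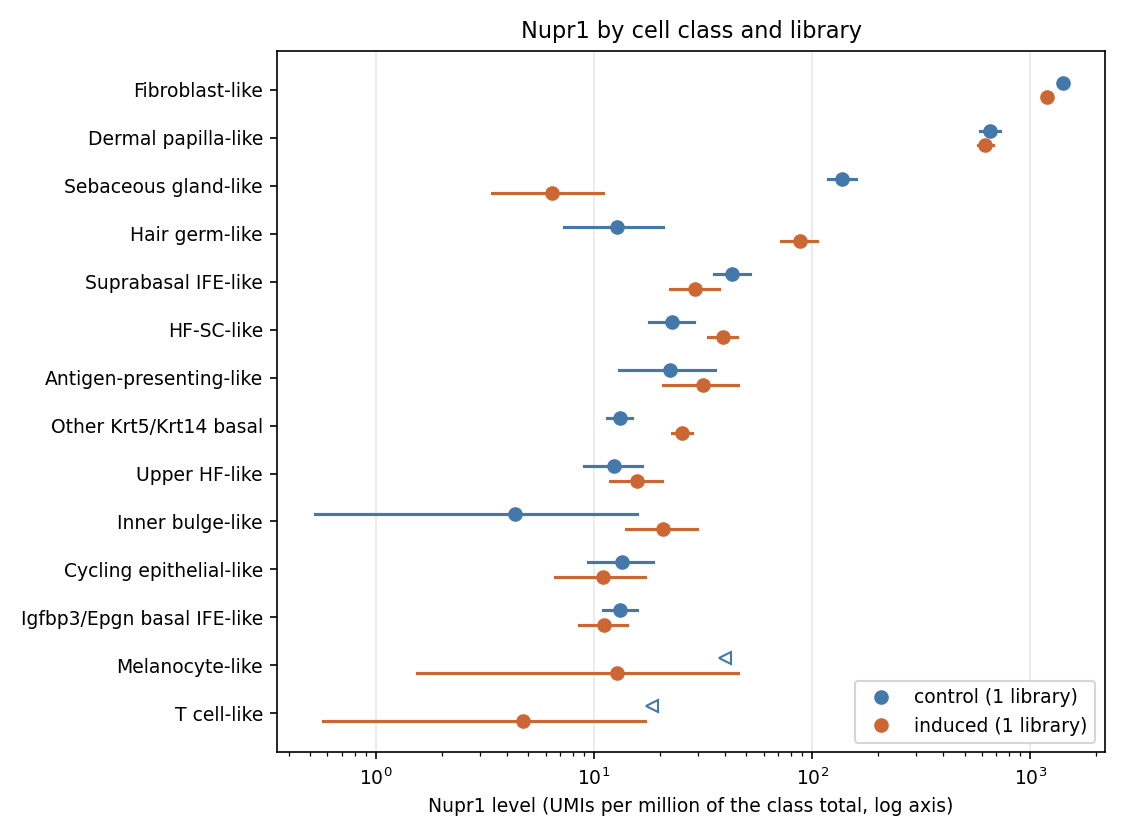
Nupr1 level in each cell class (vertical axis) as CPM of the class total (log axis), with 1 point per library and bars for 95% Poisson counting intervals; open triangles mark the limit that 3 counts allow where no UMI was found. Fibroblast-like and dermal papilla-like cells lie above 600 CPM in both libraries, while the libraries separate most in sebaceous gland-like (138 and 6.42 CPM) and hair germ-like cells (12.7 and 87.7 CPM).

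In the epithelium Nupr1 was sparse. It was detected in 14.2% of control and 16.7% of induced HF-SC-like cells, and in 11.97% and 14.6% of the remaining Krt5/Krt14 basal cells. T cell-like cells, the class of lowest level and used here as the background, had it in 0 of 36 control cells, which allows a share of up to 8.33%, and in 2.74% of 73 induced cells, at median depths of 4405 and 5136 UMIs against 9787 and 9791 in HF-SC-like cells. After each cell was thinned to 5000 UMIs the HF-SC-like shares were 8.16% and 10.0%, and the T cell-like share was 0% of 12 control cells and 2.33% of 43 induced cells. Suprabasal cells of the interfollicular epidermis (IFE), the differentiating layers, had the widest epithelial detection before thinning, at 31.5% and 33.0%. Their median depths were 19118.5 and 18865.5 UMIs, above those of HF-SC-like cells, so these shares are not matched for depth. Their Nupr1 level was 43.1 CPM in control and 29.1 in induced. Below the dermal classes, every class overlapped the next in the order of levels, so that order is not resolved. Antigen-presenting-like cells lay within the epithelial range, at 22.3 and 31.5 CPM, and melanocyte-like cells had 0 and 2 UMIs in all.

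Hair germ cells are the progenitors below the bulge that start a new hair. Hair germ-like cells held 16 Nupr1 UMIs in 105 control cells (12.7 CPM) and 113 in 101 induced cells (87.7 CPM), which gave a log2 ratio of 2.75 (2.02 to 3.64). The share of cells with a Nupr1 UMI was 12.4% (6.76 to 20.2%) in control and 20.8% (13.4 to 30.01%) in induced. The extra UMIs sat in few cells. In the induced library 6 cells held 28, 14, 12, 12, 10 and 7 UMIs, together 83 of the 113 (73.5%), whereas no control cell held more than 2. Without the 5 cells of most UMIs in each library the levels were 6.65 and 31.2 CPM. With each cell weighted equally, as a mean over cells of CPM, the log2 ratio was 2.15.

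Those 6 cells had a median depth of 16143.5 UMIs, against 11659 for the induced class, and 2 UMIs of 6 fibroblast genes between them. Epithelial cells with 50 or more UMIs over all of these genes but Pdgfra had been left out by the lineage gates. The fibroblast sums were therefore limited in advance and are no independent check for mixed cells. Over the whole hair germ-like class the 6 fibroblast markers (Col1a1, Col1a2, Col3a1, Dcn, Lum and Pdgfra) summed to 57 UMIs in control and 41 in induced, with Pdgfra at 0 and 1. Bgn, which encodes the matrix proteoglycan biglycan, is named after its values were seen. It differed from these 6 and was at 24 and 100 UMIs (19.1 and 77.6 CPM). Among cells with no UMI of the 6 markers the Nupr1 levels were 14.1 and 107 CPM. A list of 6 smooth muscle genes summed to 49 and 115 UMIs, and 10 of the 115 lay in the 6 cells. Acta2 (8 and 43 UMIs), Tagln (27 and 52), Myh11 (0 and 10) and Mylk (0 and 6) were higher in induced, Cnn1 was lower (14 and 4), and Des was at 0 in both. Dermal papilla genes summed to 36 and 26 UMIs, nearly all of them Wif1, and endothelial genes to 1 and 5. The dermal papilla gate, at 5 summed UMIs of genes that include Wif1, limited the dermal papilla sums in the same way. Immediate early genes, which tissue dissociation can induce, summed to 11896 and 18377 CPM in this class, and 13 of 16 were higher in induced with a median log2 ratio of 0.70. The part of these genes in the Nupr1 difference was not tested.

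In HF-SC-like cells Nupr1 was at 71 UMIs in 302 control cells (22.8 CPM) and 169 in 430 induced cells (39.1 CPM), a log2 ratio of 0.77 (0.37 to 1.20). A group of 7 induced cells held 82 of the 169 UMIs (48.5%), the highest of them 34. Here the smooth muscle genes summed to 48 and 39 UMIs, with Cnn1 at 40 and 15 and Tagln at 0 and 18, and 13 of the 39 lay in those 7 cells. Bgn was at 14 and 39 UMIs and the immediate early genes at 24227 and 24907 CPM. Their part was not tested. The large remaining class of basal cells gave 13.1 and 25.4 CPM, a log2 ratio of 0.95 (0.70 to 1.19). There 12 induced cells held 139 of 339 UMIs (41.0%), against 1 control cell with 7 of 236. The ratio was 0.61 without the 5 cells of most UMIs per library and 1.70 as a mean over cells. In that class the smooth muscle genes were at 16.2 and 34.3 CPM and the antigen-presenting genes at 63.7 and 88.6 CPM, and their part was not tested. Inner bulge-like cells, the differentiated layer facing the old hair, counted 2 Nupr1 UMIs over 47 control cells against 30 over 158 induced ones. Their log2 ratio of 1.96 had a wide interval of 0.28 to 5.37. Upper follicle (0.34), Igfbp3/Epgn basal (−0.25) and cycling cells (−0.28) had intervals that included 0, and suprabasal cells were lower in induced at −0.56 (−1.04 to −0.10). The suprabasal direction turned, to 0.12, when cells with 5000 or more genes were kept.

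Sebaceous gland-like cells showed the opposite difference, with 184 Nupr1 UMIs in 66 control cells but just 13 in 94 induced cells, which gave a log2 ratio of −4.37 (−5.36 to −3.61). A pair of control cells held 100 and 77 of the 184 UMIs (96.2%). Without the 5 cells of most UMIs in each library the levels were 1.64 and 2.62 CPM. The same concentration held over the epithelium as a whole. Cells with at least 5 Nupr1 UMIs were 14 of 3130 in control (0.447%) and 31 of 2614 in induced (1.19%), and they carried 34.8% and 39.9% of epithelial Nupr1. Without them the epithelial levels were 12.8 CPM in control and 14.8 CPM in induced.

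**Figure D2:**
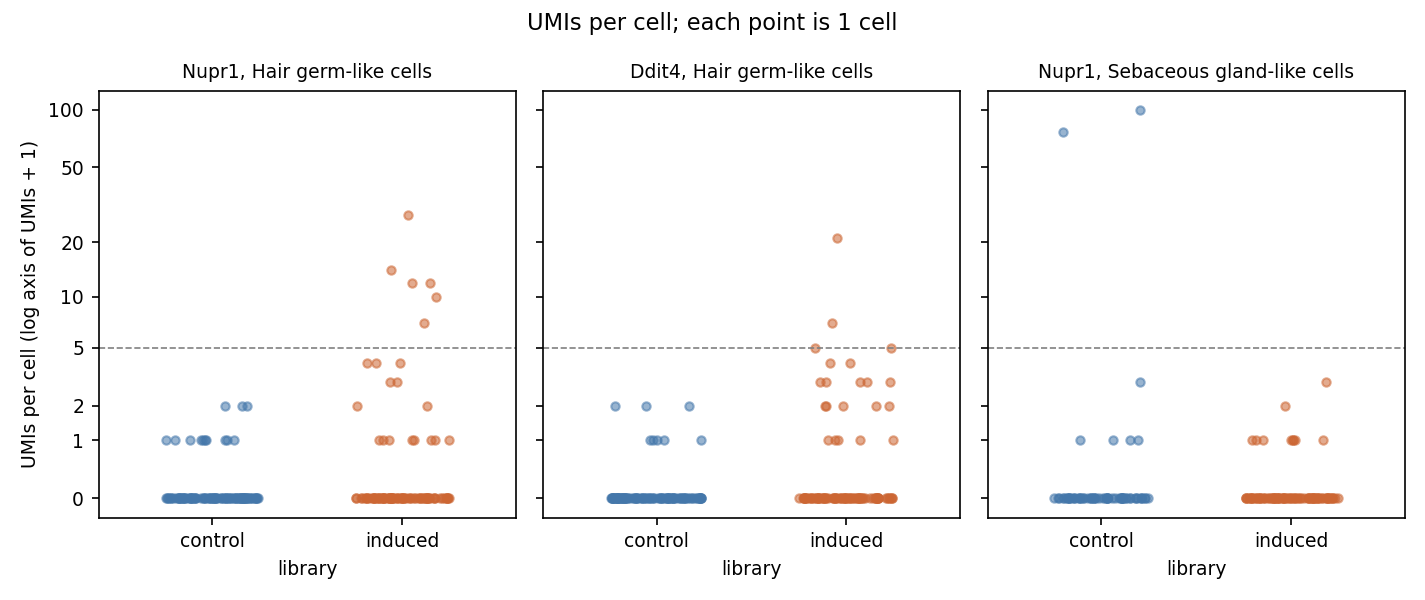
UMIs per cell (log axis of UMIs + 1) by library for Nupr1 and Ddit4 in hair germ-like cells and Nupr1 in sebaceous gland-like cells; each point is 1 cell, jittered sideways, and the dashed line marks 5 UMIs. Most cells are at 0. Those on or above the line are 6 induced hair germ-like cells for Nupr1, 4 for Ddit4 and 2 control sebaceous gland-like cells for Nupr1.

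Summed over all kept cells, Nupr1 was at 66.7 CPM in control and 90.004 CPM in induced (log2 ratio 0.43, 0.37 to 0.50), and cell make-up moved with this. Fibroblast-like and dermal papilla-like cells were 5.49% of control and 8.24% of induced cells and gave 63.5% and 56.9% of Nupr1 UMIs. Cells outside the classes gave 11.7% and 21.2%. The share of dermal cells was set in part by the sort, so the summed level does not compare like cells.

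Ddit4, known to respond to ATF4, hypoxia and glucocorticoid, resembled Nupr1 in hair germ-like cells. It had 11 UMIs in control (8.75 CPM) and 76 in induced (59.0 CPM), a log2 ratio of 2.70 (1.83 to 3.81), and was detected in 7.62% and 20.8% of cells. In the induced library 4 cells with at least 5 UMIs held 38 of the 76. Just 1 hair germ-like cell held at least 5 UMIs of both Nupr1 and Ddit4, so most cells of high count were high in only 1 of these genes. In cells with no fibroblast UMI the Ddit4 levels were 10.2 and 83.1 CPM.

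Elsewhere Ddit4 had no common direction. In upper follicle-like cells it was at 12 and 55 UMIs (log2 ratio 2.17, 1.30 to 3.25), and in HF-SC-like cells at 25 and 62 UMIs (0.82, 0.15 to 1.57). It was lower in induced in antigen-presenting-like cells, with 40 and 4 UMIs (−3.34, −5.44 to −2.02), and in dermal papilla-like cells, with 17 and 11 UMIs (−1.45, −2.71 to −0.29). Over all epithelial classes it was at 12.8 and 16.9 CPM, and at 10.5 and 10.8 CPM without the 16 control and 29 induced cells that held at least 5 UMIs.

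Counted together, 2 of the 8 members measured in hair germ-like cells (at least 20 UMIs over both libraries) were at least 2-fold higher in induced, Nupr1 and Ddit4, beside 6.32% of 7560 genes, and none was 2-fold lower, beside 3.41%. The rule that chose Nupr1 used this contrast, so nothing is read from that count. In HF-SC-like cells 0 of 9 were 2-fold higher (3.1% of genes) and 1, Trib3, was 2-fold lower (2.01%). In upper follicle-like cells 1 of 9, Ddit4, was higher (2.35%) and 0 lower (1.33%). In inner bulge-like cells 1 of 7, Nupr1, was higher (6.03%) and 1, Chac1, was lower (4.02%). In sebaceous gland-like cells 0 of 9 were higher (3.45%) and 1, Nupr1, was lower (4.46%). In the remaining basal cells 0 of 9 were higher (2.33%) and 1, Trib3, was lower (1.2%). Cycling cells had 0 of 9 higher (3.56%) and 2 lower, Trib3 and Chac1 (2.52%). No member of 9 passed 2-fold in Igfbp3/Epgn basal cells (3.15% of genes higher, 1.54% lower) or in suprabasal cells (3.29% and 1.64%).

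Outside the epithelium, dermal papilla-like cells had 0 of 8 higher (4.04%) and 1, Ddit4, lower (3.6%), and fibroblast-like cells had 0 of 8 higher (4.15%) and 0 lower (2.04%). Antigen-presenting-like cells had 0 of 8 higher (4.61%) and 2 lower, Ddit4 and Chac1 (4.36%). In T cell-like cells 0 of 3 were higher (11.3%) and 1, Ddit3, was lower (8.4%), and in melanocyte-like cells neither of the 2 measured members passed (7.38% higher, 5.63% lower).

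**Figure D3:**
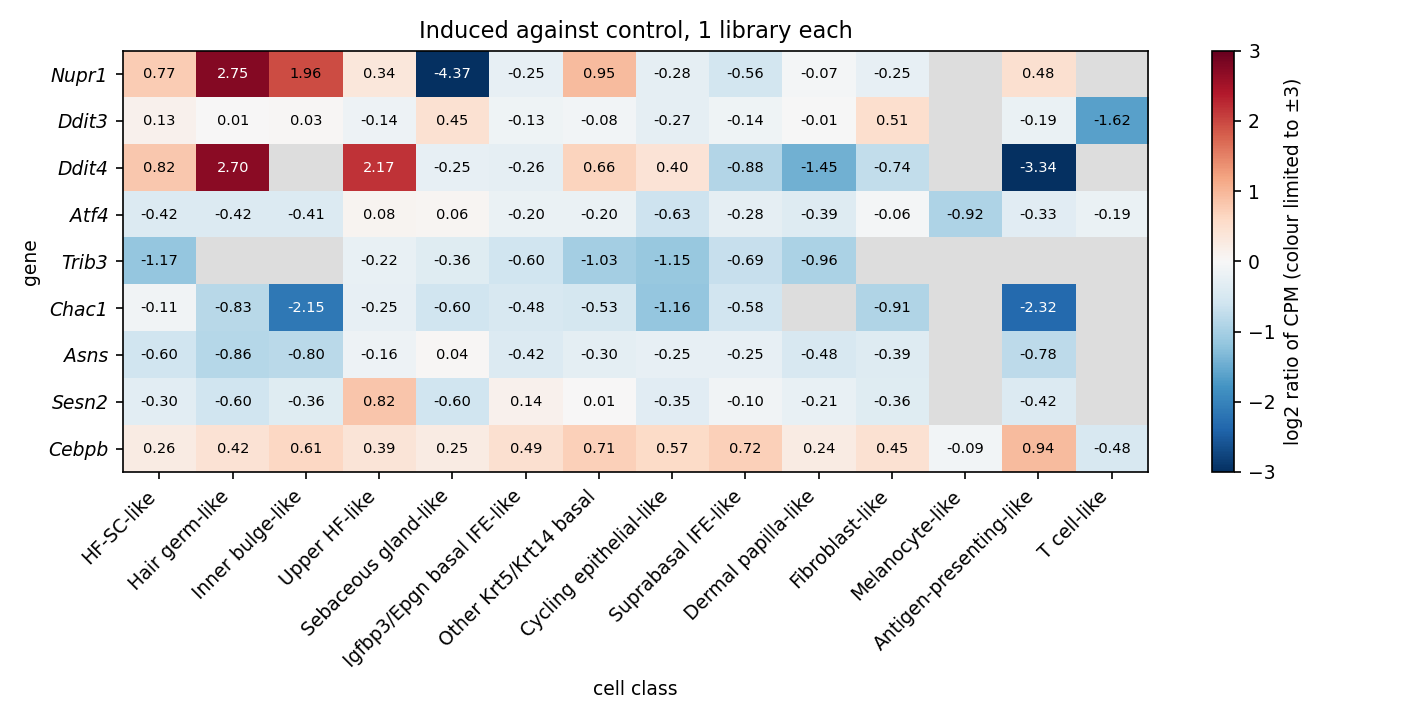
Log2 ratio of CPM, induced against control, for each gene (rows) in each cell class (columns), with red for higher and blue for lower in induced, colour limited to ±3, and grey where fewer than 20 UMIs were counted over both libraries. Nupr1 and Ddit4 change sign between classes, Trib3 and Chac1 are below 0 in every measured class, and Cebpb is above 0 in 12 of 14.

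The transcript of Atf4 itself was lower in the induced library in 12 of 14 classes, in 10 of them beyond counting error, and no class differed by 2-fold. In HF-SC-like cells it was at 668 CPM in control and 499 CPM in induced (log2 ratio −0.42, −0.51 to −0.33), and in hair germ-like cells at 591 and 443 CPM (−0.42, −0.58 to −0.26). Over all epithelial classes the levels were 499 and 422 CPM (−0.24). Upper follicle-like and sebaceous gland-like cells were the exceptions, at 0.08 and 0.06 with intervals that included 0. Antigen-presenting-like cells turned from −0.33 to 0.15 when each cell was thinned to 5000 UMIs. Of the 1409 genes measured in all 14 classes, 10.7% were likewise lower in at least 12. Because ATF4 is controlled mainly by translation, its mRNA level is no measure of its activity.

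Trib3 was lower in induced in all 8 classes that could be measured and Chac1 in all 11, as were 1.06% of the 7535 genes measured in 8 or more classes. That share pools genes measured in 8 up to all 14 classes, so it is not matched to either gene. As a mean over cells, Trib3 in sebaceous gland-like cells turned from −0.36 to 0.14. The classes share their 2 libraries and are not independent of each other. Over all epithelial classes Trib3 was at 340 UMIs in control (8.06 CPM) and 158 in induced (4.45 CPM), a log2 ratio of −0.86 (−1.14 to −0.58). Chac1 was at 881 UMIs (20.9 CPM) and 446 UMIs (12.5 CPM), a log2 ratio of −0.73 (−0.90 to −0.57). Trib3 was highest in dermal papilla-like cells, at 48.4 and 24.9 CPM, and no other class overlapped that range. Its HF-SC-like counts were 23 and 14 UMIs (−1.17, −2.26 to −0.17).

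Chac1, Asns and Sesn2 were higher in the Igfbp3/Epgn basal cells of the epidermis than in HF-SC-like cells, in both libraries. Chac1 was highest in cycling cells (41.8 CPM in control, 18.5 in induced) and Igfbp3/Epgn basal cells (33.7 and 24.1), against 7.70 and 7.17 in HF-SC-like cells. Its difference between libraries was widest in antigen-presenting-like cells, at 24 and 5 UMIs (−2.32, −4.18 to −1.01). Asns was highest in dermal papilla-like cells (127 and 91.3 CPM) and Igfbp3/Epgn basal cells (99.3 and 74.3), against 30.8 and 20.3 in HF-SC-like and 17.3 and 13.1 in fibroblast-like cells. It was lower in induced in 11 of 12 measured classes, with log2 ratios of −0.60 (−1.03 to −0.17) in HF-SC-like and −0.86 (−1.54 to −0.22) in hair germ-like cells. The share of all genes with that count was not taken. Of genes measured in all 14 classes, 10.7% were lower in at least 12. Of the members with the TGATGNAA letters printed above, Nupr1 was higher and Asns lower in induced hair germ-like cells, Chac1 was at 16 and 9 UMIs there (−0.83, −2.23 to 0.40) and Trib3 had 7 and 3 UMIs, too few to compare.

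Sesn2 was highest in Igfbp3/Epgn basal cells (119 and 131 CPM) and then in suprabasal cells (100.1 and 93.6), and neither range overlapped the next class. In induced it was lower in 9 of 12 measured classes, none of those beyond counting error, and over all epithelial classes it was at 61.3 and 55.8 CPM (−0.14, −0.22 to −0.05). Upper follicle-like cells were higher, at 69 and 121 UMIs (log2 ratio 0.82, 0.39 to 1.28), a difference that was gone with each cell thinned to 5000 UMIs (−0.01). No share of all genes was counted beside the class directions of Sesn2 or Ddit3. Ddit3 was higher in 5 and lower in 8 of 13 measured classes, and its HF-SC-like (0.13) and hair germ-like (0.01) intervals included 0. Its levels of 45.4 and 45.8 CPM in hair germ-like cells were close while Nupr1 and Ddit4 differed there. T cell-like cells had the highest control level and were lower in induced, at 32 and 27 UMIs or 197 and 63.7 CPM (−1.62, −2.42 to −0.84). A single control cell held 14 of the 32, and the ratio was −0.55 without the 5 cells of most UMIs per library. Fibroblast-like cells had more Ddit3 in induced, at 66.8 and 95.2 CPM (0.51, 0.11 to 0.92).

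Cebpb was higher in induced in 12 of 14 classes, in all 12 beyond counting error, and no class reached 2-fold. By comparison 9.94% of genes measured in all classes were likewise higher in at least 12. The median of the immediate early genes also lay above that of all genes in 12 of 14 classes, and their part in the Cebpb difference was not tested. Over all epithelial classes Cebpb was at 563 CPM in control and 862 CPM in induced (log2 ratio 0.61, 0.59 to 0.64). The remaining basal cells gave 656 and 1075 CPM (0.71), antigen-presenting-like cells 475 and 912 CPM (0.94), and HF-SC-like cells 611 and 730 CPM (0.26). T cell-like cells were lower in induced, at 492 and 354 CPM (−0.48), but the ratio turned to 0.72 with each cell thinned to 5000 UMIs. Like Nupr1, Cebpb was highest in dermal papilla-like cells (2235 and 2633 CPM) and fibroblast-like cells (1398 and 1911 CPM). Over the 28 points it was the member most like Nupr1 (r = 0.72), while Nupr1 and Asns shared little pattern (r = 0.06).

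**Figure D4:**
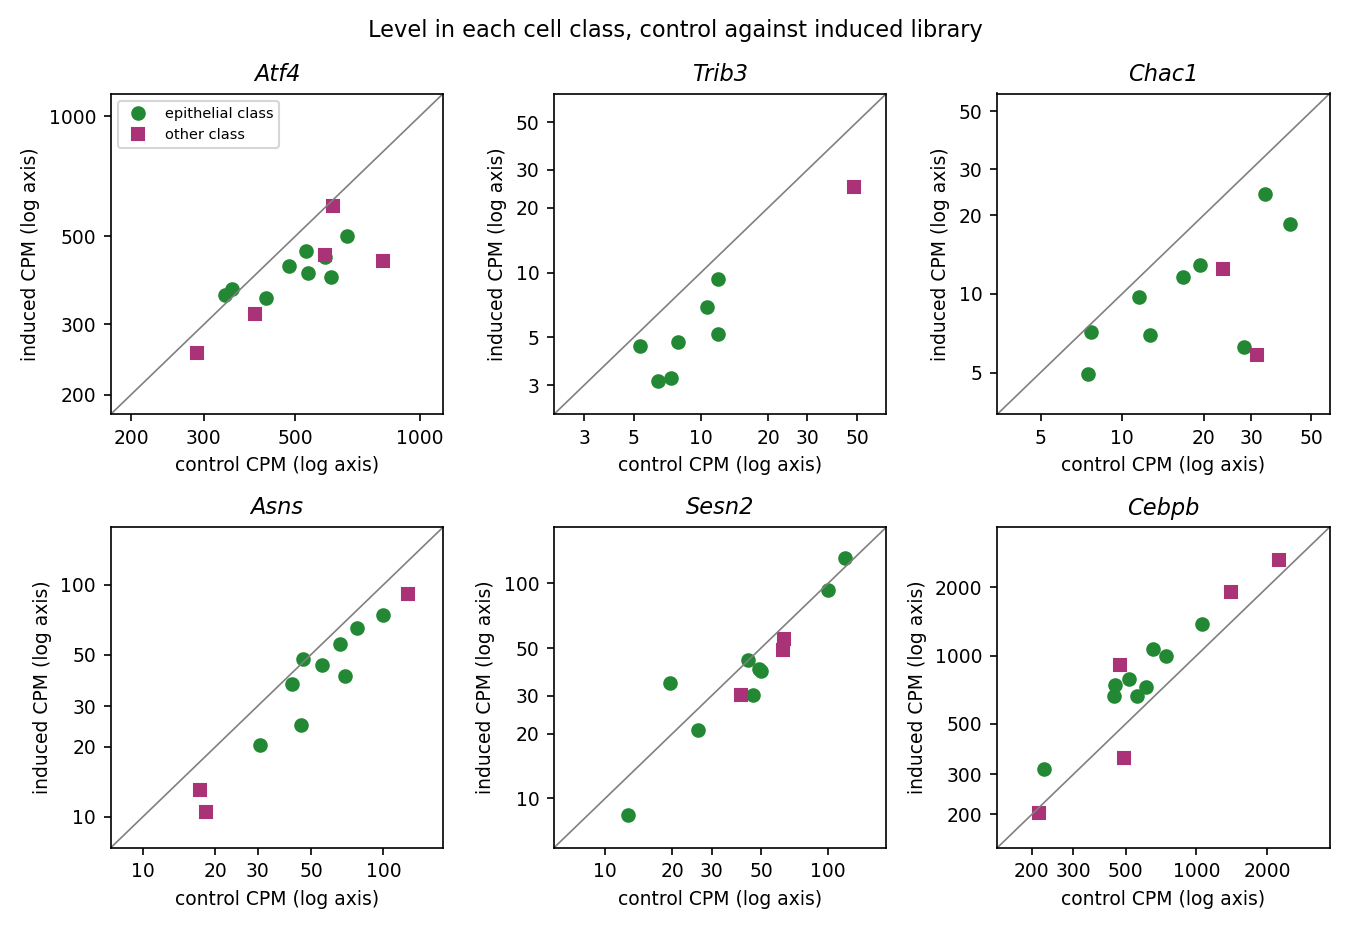
CPM in the control library (horizontal) against the induced library (vertical), both on log axes, for 6 genes with 1 point per measured cell class; circles are epithelial classes, squares other classes, and the line marks equal levels. Trib3 and Chac1 lie below the line in every measured class (8 and 11), Atf4 in 12 of 14, and Cebpb lies above it in 12 of 14.

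The genes around these members were described from lists of known pathway genes, with the members left out. Among cytosolic tRNA synthetases, a group that ATF4 raises, 10 of the 11 measured were lower in induced hair germ-like cells, with a median log2 ratio of −0.51 beside 0.02 for all genes. Cars, for cysteine, had 83 UMIs in control and 38 in induced (−1.15, −1.76 to −0.59) and Eprs, for glutamate and proline, had 212 and 148 (−0.55, −0.87 to −0.25). Sars, for serine, was the exception with 50 and 95 UMIs (0.88, 0.38 to 1.41). In HF-SC-like cells 9 of 12 were lower with a median of −0.25 beside 0.08 for all genes. The list's median lay below that of all genes in each of the 12 classes with at least 5 of its genes measured.

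ATF4 targets of amino acid synthesis and transport had medians of −0.04 in both hair germ-like and HF-SC-like cells, beside 0.02 and 0.08 for all genes. The list's median lay below that of all genes in 12 of 13 classes with at least 5 of its genes measured. Slc38a2, a neutral amino acid transporter with the most UMIs of the list, was at 2264 and 2924 UMIs in hair germ-like cells (0.33, 0.25 to 0.41) and had a ratio of 0.00 in HF-SC-like cells. Of the kinases and eIF2 machinery, 7 of 14 measured genes were higher in hair germ-like and 11 of 17 in HF-SC-like cells. Their medians were 0.09 and 0.14, beside 0.02 and 0.08 for all genes. Ppp1r15a, which encodes the stress-induced eIF2 phosphatase subunit GADD34, was at 0.21 (0.01 to 0.41) in hair germ-like and −0.16 (−0.27 to −0.05) in HF-SC-like cells. Eif2s2, a subunit of eIF2, was at −0.46 and −0.36.

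Among ATF4-linked regulators and secreted factors, Atf3 was at 1161 and 2102 UMIs in hair germ-like cells (0.82, 0.72 to 0.92) and at −0.01 in HF-SC-like cells. Atf3 is also an immediate early gene, as are Fos (1.46) and Socs3 (1.87), both past 2-fold in hair germ-like cells. Socs3 was past 2-fold in HF-SC-like cells too, at 354 and 1133 UMIs (1.20, 1.03 to 1.38). In HF-SC-like cells the growth arrest gene Gadd45a was lower in induced, at 377 and 250 UMIs (−1.06), and the lipoprotein receptor gene Vldlr was higher, at 26 and 78 UMIs (1.09). In hair germ-like cells Gadd45a was at 106 and 58 UMIs (−0.90, −1.39 to −0.43).

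Genes of the ATF6 and XBP1 arms of the unfolded protein response were mostly lower in induced hair germ-like cells, with 2 of 18 higher. Their median there was −0.24, beside 0.02 for all genes. In HF-SC-like cells 11 of 18 were higher, with a median of 0.06 beside 0.08 for all genes. The list's median lay below that of all genes in 12 of 14 classes. Hspa5, the chaperone BiP, was at 1232 and 1035 UMIs in hair germ-like cells (−0.29, −0.41 to −0.17) and at 3004 and 4078 in HF-SC-like cells (−0.03, −0.10 to 0.04). The C/EBP relatives Cebpa (0.81) and Cebpd (0.25) were higher in hair germ-like cells and Cebpg, the ATF4 partner, was lower (−0.72, −1.07 to −0.38).

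**Figure D5:**
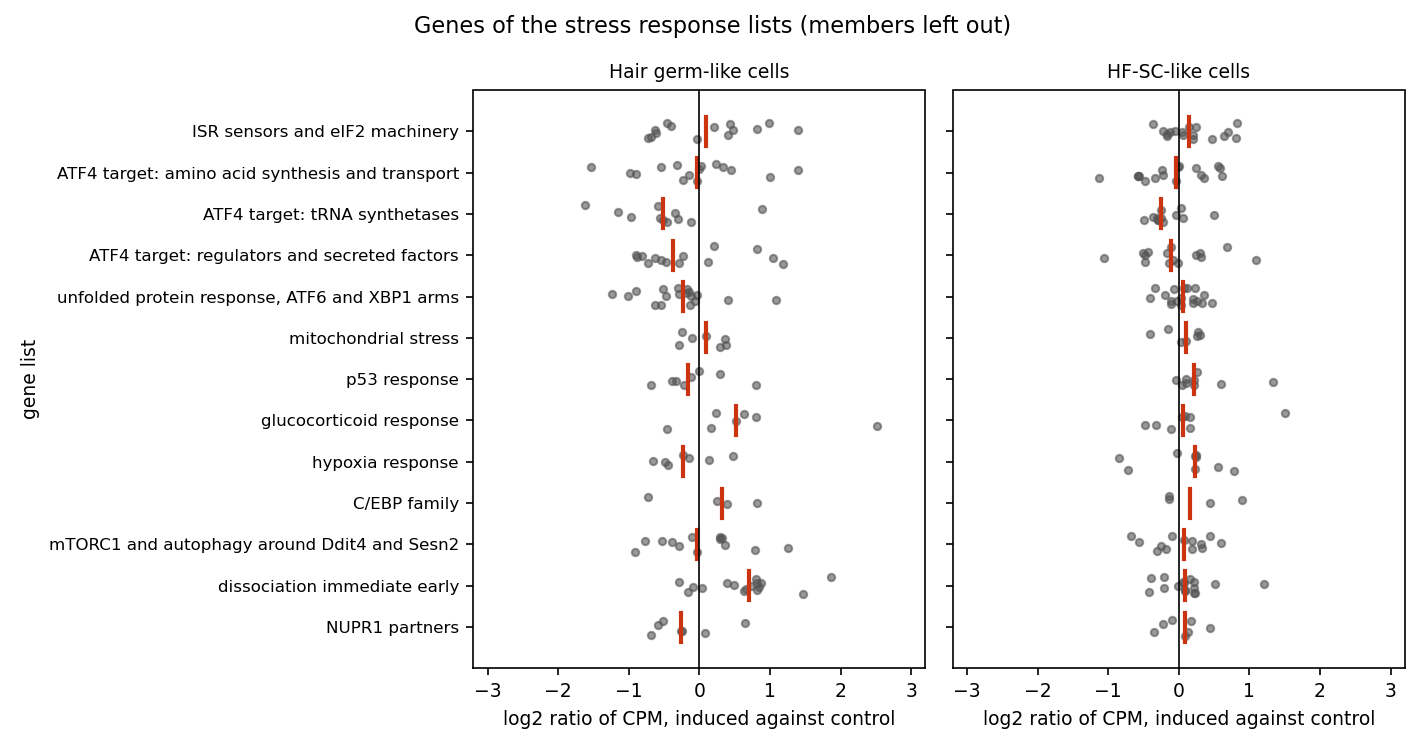
Log2 ratio of CPM, induced against control, for the genes of each stress response list (rows), with 1 grey point per gene of at least 20 UMIs and a red bar at the list's median, in hair germ-like (left) and HF-SC-like cells (right). In hair germ-like cells the tRNA synthetase list lies furthest to the left (median −0.51) and the immediate early list furthest to the right (0.70), while all HF-SC-like medians lie between −0.25 and 0.23.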

How the data were processed

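Back skin cells from 1 control and 1 induced mouse were profiled with 1 10x Genomics library each. The authors mapped reads to mm10 and made UMI counts with Cell Ranger, per the labels (matrix header software 3.0.1), and deposited whole-number counts without normalization. No source used here gives the annotation release. Library totals were 55465594 and 49733560 UMIs.

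Cells with more than 200 and fewer than 5000 genes and under 10% mitochondrial UMIs were kept, as the study states. Doublets were kept in the main analysis, since Scrublet's automatic threshold marked 4 and 5 cells; an alternative left out the highest 165 and 145 scores. Cells entered a class when summed marker UMIs reached a minimum set after the marker distributions were seen (for example 5 of Cd34 and Krt24 for HF-SC-like); cells that met more than 1 lineage gate were left out. Classes are therefore ranges of marker counts.

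UMIs were summed per class and library and scaled to the class total (CPM). Log2 ratios used a pseudocount of 0.5 UMIs and required 20 UMIs over both libraries. Intervals are exact Poisson (conditional binomial for ratios) or Clopper-Pearson at 95%; a share of 0 is limited at 3 counts. With 1 library per group no test was made. Ratios and intervals were tried on simulated Poisson counts, which is the model the intervals assume. That trial cannot show how they behave where a few cells hold most UMIs. Pattern likeness is Pearson's r of log2(CPM + 10) over genes with at least 500 UMIs.

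The members, classes and gene lists were chosen with earlier results of these data known. Named genes were the 9 members, genes past 2-fold with at least 100 UMIs in hair germ-like or HF-SC-like cells, up to 4 of most UMIs per list, the 5 most like Nupr1 and the 5 most like Atf4, and class markers. Promoter and microRNA sequences are RefSeq's on GRCm38.p6. Python 3.11.15, scipy 1.17.1 and scanpy 1.11.5 were used. Alternatives covered the cell filter, scaling, gates, doublets, the cells of most UMIs, the UMI minimum and thinning to 5000 UMIs. Leaving out shared barcodes was added after seeing the data.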

Additional observations from a re-analysis of the deposited data

Results flagged for a closer look

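The log2 ratio of Nupr1 was 2.75 in hair germ-like and −4.37 in sebaceous gland-like cells, so the libraries differed in opposite directions under the same contrast. That of Ddit4 was 2.70 in hair germ-like and −3.34 in antigen-presenting-like cells. With 1 library per group these differences between classes were not tested. In each of the 4 cases a few cells of the higher library held many of the UMIs: the 5 cells of most UMIs held 67.3% of Nupr1 in induced hair germ-like cells, 98.9% in control sebaceous gland-like cells, and 55.3% and 62.5% of Ddit4 in induced hair germ-like and control antigen-presenting-like cells.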

How the results depend on the processing

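Over 11 alternatives, 1131 of 1207 recomputed values stayed within the main counting interval or within 1.5 times a count. A further 76 moved, and no recomputed value past 2-fold changed sign. Values under an alternative's UMI minimum were not recomputed. Nupr1 in sebaceous gland-like cells without the 5 cells of most UMIs was such a value, and its remaining level was higher in induced. The 100 UMI minimum cannot change a ratio it keeps, and leaving out shared barcodes removed only 5 barcodes. Both are in these counts. Of smaller differences whose counting interval excluded 0, the sign turned for Nupr1 in suprabasal cells without the upper limit on genes, and under thinning for Sesn2 in upper follicle-like, Cebpb in T cell-like and Atf4 in antigen-presenting-like cells, with values in the report. The Nupr1 log2 ratio in hair germ-like cells was 4.61 with under 5% mitochondrial UMIs, 3.69 with marker minima doubled and 1.77 with cells thinned to 5000 UMIs, and 2.16 without the 5 cells of most UMIs per library. In HF-SC-like cells it ran from 0.65 to 0.89. The count of members at least 2-fold higher in hair germ-like cells was 1 where at least 100 UMIs were required, since Ddit4 had fewer. In HF-SC-like cells it was 1 with under 5% mitochondrial UMIs and 1 without the highest Scrublet scores, Ddit4 in both. Atf4 was lower in at least 11 classes under every alternative, and Chac1 in every measured class. No paired analysis was possible because each group has 1 library. Differences between mice were not measured, and low counts limit Trib3 and Chac1 in most classes.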

Other observations

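The glucocorticoid response list was above the all-gene median in 12 of 13 classes with at least 5 of its genes measured. HF-SC-like cells were the exception, with a list median of 0.06 beside 0.08 for all genes. Tsc22d3, which encodes the glucocorticoid-induced leucine zipper, had 22 UMIs in control and 88 in induced HF-SC-like cells (log2 ratio 1.503, 0.84 to 2.27) and 4 and 26 in hair germ-like cells. Sgk1, another glucocorticoid-responsive kinase gene, was lower in both classes, at −0.32 (−0.40 to −0.24) and −0.45 (−0.58 to −0.32). Trp53inp1, a p53 target, was at 103 and 361 UMIs in HF-SC-like cells (1.33, 1.02 to 1.67) and at 99 and 63 in hair germ-like cells (−0.68, −1.17 to −0.22), so its direction differed between these classes, which was not tested.

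Autophagy genes near mTORC1 signalling were split in hair germ-like cells, with Map1lc3a at 881 and 529 UMIs (−0.77, −0.93 to −0.62) and Map1lc3b at 324 and 417 (0.33, 0.11 to 0.54). The same split was seen in HF-SC-like cells, at −0.56 and 0.45. The 5 genes whose class pattern was most like Atf4 were 1810055G02Rik (r = 0.83), Ubtd2 (0.82), Rock2 (0.82), Acvr1 (0.80) and Cc2d2a (0.79) over 28 points. Cells that passed more than 1 lineage gate had Nupr1 at 143 CPM in control and 318 CPM in induced, between the epithelial and the dermal levels.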
